A study of Mus musculus with 16 samples.

Results

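The genes for the proteins of the cytosolic ribosome were examined in RNA from terminal ileum, in wild type (Tas1r3+/+) and Tas1r3-/- animals given either a normal diet (ND) or a Western diet (WD). The members were chosen by name. They were the genes called Rpl or Rps followed by a digit, together with Rpsa, Rplp0, Rplp1 and Rplp2, without names holding "-ps" and without the Rps6k kinase genes. This rule took 90 of the 23299 genes listed, and all 90 passed the filter on low values, which kept 19042 genes. Of the 90 members, 38 carried small subunit names, 49 carried large subunit names and 3 encoded the acidic stalk proteins Rplp0, Rplp1 and Rplp2. A name of this kind does not always mean a ribosomal protein. Rps19bp1 encodes a binding partner of RPS19, and Rpl32l, Rpl37rt, Rpl6l, Rps12l1, Rps3a2, Rps3a3 and Rps4l were annotated as processed pseudogenes, that is, copies of an mRNA that was inserted back into the genome.

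The ribosome is built from a small subunit, which reads the mRNA, and a large subunit, which joins amino acids. Each subunit holds ribosomal RNA and one copy of most of its proteins, so that the genes for these proteins are usually expressed together and at high levels. Their mRNAs are known for a run of C and T bases at the very start, the 5' terminal oligopyrimidine (TOP) tract, through which the mTORC1 kinase controls their translation, while their mRNA levels can stay the same. The crypts of the small intestine, where cells divide, depend on a high rate of ribosome production.

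The study asked how the sweet and umami taste receptor subunit TAS1R3 shapes the response of the gut to WD. All mice were on the C57BL/6 background, were 5 to 6 weeks of age at the start and were fed for 10 weeks. ND came with plain water, and WD combined 60% high-fat pellets with a 30% sucrose solution to drink. The Tas1r3-/- mice lacked the receptor in every tissue, and each library was made from whole ileum, where fewer cells of a type and less RNA per cell cannot be told apart. The labels name 16 samples, 2 males and 2 females in each of the 4 groups, but 13 libraries were used. In all 419 member transcripts, the values labelled KO-ND female equalled weighted means of the 2 ND-fed Tas1r3-/- males (weights of 0.75 and 0.25 for the first column and of 0.625 and 0.375 for the second), and both columns were left out. The 2 WD-fed Tas1r3-/- female columns were not independent either, because 2 times the second minus the first returned values of at most 6 digits in 417 of 419 member transcripts, and their mean was used as 1 library. This left 4 ND-fed Tas1r3+/+, 2 ND-fed Tas1r3-/- (both male), 4 WD-fed Tas1r3+/+ and 3 WD-fed Tas1r3-/- libraries. The study describes each sample as an individual mouse, and its number of mice per group is larger than that of the labels. The p-values measure the spread between these libraries.

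Tas1r3, the deleted gene, was listed at 1.56, 1.63, 2.09 and 1.65 scaled RPKM in the ND-fed Tas1r3+/+ libraries and at 4.33 to 6.65 in the WD-fed ones, and at no more than 0.00532 in any Tas1r3-/- library. The value of 1 read in a transcript of 1000 bases was between 0.063 and 0.139 RPKM in the 12 libraries where it could be read from the low values, with 86.7 to 89.7% of low values at a whole number of reads (within 0.05 of a read). The summed RPKM was 817011 to 819916 in the ND libraries and 542371 to 672933 in the WD libraries. A nearly equal total in ND and not in WD libraries means that the ND values may be scaled per total, as TPM are, and the WD values not, a doubt that bears on each diet comparison. Library scaling was therefore applied, and all values below are scaled RPKM unless stated. All 9 enterocyte and all 6 ileal markers passed the filter on low values, and 1 of 6 pancreatic markers did. The summed level was at least 1500 for the enterocyte and 928 for the ileal markers in every library.

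The level of the members spanned a wide range. Their mean RPKM as deposited, which is a level per length and can be compared between genes, ran from 14.6 for Rps19bp1 to 1440 for Rpl41, with 19.6 for Rpl7l1, 24.1 for the pseudogene Rps4l, 27.4 for Rpl31 and 28.9 for Rps13 at the low end. After Rpl41, which encodes the smallest protein of the large subunit, the highest were Rps27rt (1020), Rpl8 (892), Rps15 (751) and Rpl37rt (720). The members' coding sequences were therefore searched for among the other genes of the table.

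Most members had near-identical copies elsewhere in the table. Set aside were Rps19bp1, Rps4l and the 7 members that are copies of another member (Rpl32l, Rpl37rt, Rpl6l, Rps12l1, Rps27rt, Rps3a2 and Rps3a3), of which Rps27rt is annotated as protein-coding. The coding sequences of the remaining 81 members were compared with every listed transcript that could be matched to GENCODE M21 (98.2%). A gene counted as a copy when it held at least 80% of the coding sequence at 90% identity or more on the same strand. Copies were found for 77 of the 81 members, 873 genes in all, of which 7 were themselves members by the naming rule. Of the copies, 829 were annotated as processed pseudogenes, 848 had a single exon, and 129 were at least 99% identical to their parent. Short coding sequences of 4 pairs on which the results below turn are shown, taken from GENCODE M21 transcripts on GRCm38 (mm10). Rps27 (chr3:90212522-90213651, minus strand) and Rps27rt (chr9:114982366-114982739, minus strand) did not differ at any of 252 coding bases, and Rpl12 (chr2:32961559-32965345, plus strand) and the pseudogene Gm10275 (chr10:29698746-29699380, minus strand) did not differ at any of 495. The first 60 bases of each shared coding sequence were:
Rps27 and Rps27rt: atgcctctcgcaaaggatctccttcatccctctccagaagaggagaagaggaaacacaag
Rpl12 and Gm10275: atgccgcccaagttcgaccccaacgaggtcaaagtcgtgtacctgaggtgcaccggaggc

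Rpl37 (chr15:5116645-5119140, plus strand) and Rpl37rt (chr5:115102923-115110268, minus strand) differed at 1 of 291 coding bases, and Rpl23 (chr11:97777527-97782437, minus strand) and the pseudogene Gm9794 (chr6:66875321-66875743, minus strand) at 1 of 420. The 60 coding bases around each difference are given with the differing base in capitals (coding bases 219 to 278 for Rpl37 and 223 to 282 for Rpl23, counted from the start codon):
Rpl37: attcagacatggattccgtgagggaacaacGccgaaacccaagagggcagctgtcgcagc
Rpl37rt: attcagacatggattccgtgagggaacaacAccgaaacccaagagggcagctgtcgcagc
Rpl23: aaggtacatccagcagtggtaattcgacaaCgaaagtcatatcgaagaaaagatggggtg
Gm9794: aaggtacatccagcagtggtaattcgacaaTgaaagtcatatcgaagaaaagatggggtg

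A read that covers no differing base fits the gene and its copy equally well, and how it was divided between them is not given in the sources used here. In these tables most of the signal stood with the copies. Over the 77 families with a copy, the member's own row held 16.4 to 23.7% of the family's summed RPKM, depending on the library. The median own share of the 81 members was 15.2%, it was below 20% for 50 of them and below 50% for 69. In 64 families a copy was listed above the member itself. Rps27, a zinc finger protein of the small subunit, was listed at a mean of 44.0 RPKM and its copy Rps27rt at 1020. Rps12 was listed at 54.0 and its 23 copies together at 1880, and Rpl31 at 27.4 with 1120 in 21 copies. Rpl23 stood at 106 with 686 for Gm9794, and Rpl28 at 98.1 with 948 for Rpl28-ps1. By contrast, 4 members had no copy by this definition, among them Rps3, Rps19 and Rpl8 with means of 302, 149 and 892 RPKM. The 90 member rows made up 2.54 to 3.44% of the summed RPKM of a library, whereas the 77 families with their copies made up 9.07 to 13.2%. All comparisons below were therefore made on the members' own rows, as the rule asks, and again on family sums, in which a member's row and its copies were added. The family sums were chosen after the values had been seen.

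**Figure D1:**
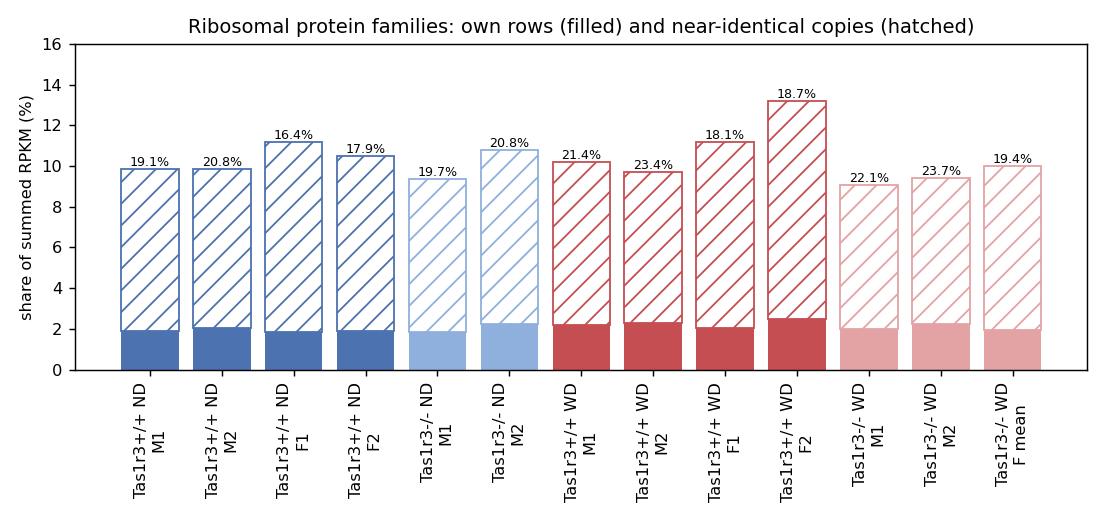
Share of the summed RPKM of each of the 13 libraries (y axis, %) that fell to the 77 ribosomal protein families with a copy, split into the members' own rows (filled) and their near-identical copies (hatched). The number above each bar is the own rows' share of the family total. It was 16.4 to 19.4% in the 5 female libraries and 19.1 to 23.7% in the 8 male libraries.

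The start of the members' mRNAs was looked at as well, since the TOP tract is what this gene family is best known for. RefSeq promoter sequences (GRCm38.p6) were matched for 65 members. A C followed by at least 5 further C or T bases, beginning within 5 bases of the annotated start on the transcribed strand, was found in 27 of these (41.5%) and in 10.2% of all 27025 promoters. The motif CCGGAA, bound by ETS factors, was found on either strand within 300 bases in 32 members (49.2%) and in 15.2% of all promoters. Windows from 10 bases before to 20 bases from the start are given for Rps6, whose product is the substrate of S6 kinase, for Rps27 and Rpl12, which appear above, and for Rplp0, with the pyrimidine run in capitals (chr4:86857348-86857377, minus strand; chr3:90213629-90213658, minus strand; chr2:32961702-32961731, plus strand; chr5:115559457-115559486, plus strand):
Rps6: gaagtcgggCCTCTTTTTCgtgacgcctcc
Rps27: cgctttcgCTCCTTTCCggcggtgacgacc
Rpl12: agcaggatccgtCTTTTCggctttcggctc
Rplp0: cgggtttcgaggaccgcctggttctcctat

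The run in Rps6 was 10 bases long, that in Rps27 9 and that in Rpl12 6. No such run began within 5 bases of the annotated start of Rplp0, which says only that these letters are not at that position. These data measure mRNA level and not translation.

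Next, the members were compared between diets in Tas1r3+/+ mice. Their median log2 difference, WD minus ND, was 0.34, against 0.02 for all genes tested, and 63 of 90 were higher on WD (51.8% of all genes were). No member passed the study's thresholds of a 2-fold change and an adjusted p below 0.01, as 0.00525% of all genes did, or an adjusted p below 0.05 (0.116% of all genes). The smallest adjusted p of a member was 0.12 (limma with Benjamini-Hochberg adjustment). At an unadjusted p below 0.05, 18 members were higher and 4 lower, against 6.9% and 8.64% of all genes. Together these were 24.4% of members, where 15.5% of all genes passed. The groups did not overlap for 12 members, 13.3% against 10.5% of all genes, 8 of them higher (4.2% of all genes) and 4 lower (6.3%). No single member could be called. With the RPKM used as deposited, without scaling, 29 of 90 members were higher and the median was -0.12, where the median of all genes was -0.38.

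The members with the smallest unadjusted p illustrate the range. Rpl21 was at 57.5, 63.6, 48.5 and 53.9 on ND and at 88.8, 86.3, 92.1 and 74.8 on WD, so that the groups were well apart (0.61 ± 0.16, adjusted p = 0.12 by limma). Rps27a encodes RPS27A fused to ubiquitin. It was at 55.3, 63.7, 44.3 and 52.3 on ND and at 85.6, 74.7, 65.6 and 124 on WD (0.66 ± 0.20, adjusted p = 0.16 by limma). Rps6 was at 200, 199, 130 and 169 on ND and at 243, 233, 261 and 349 on WD (0.64 ± 0.20, adjusted p = 0.17 by limma). For each of these 3 genes the exact two-sided permutation test gave p = 0.029, the smallest that 4 against 4 libraries allow. Rpl17 was also among the 5 higher members with the smallest p, at 17.3 to 27.1 on ND and 32.4 to 70.3 on WD.

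Other members stood lower on WD. Rpl13 was at 253, 297, 277 and 250 on ND and at 122, 95.8, 202 and 176 on WD, with a log2 difference of -0.91 ± 0.25 and an adjusted p of 0.14 in the limma fit. Rpl29 was at 266, 376, 261 and 262 on ND and at 164, 110, 182 and 231 on WD (-0.79 ± 0.29, adjusted p = 0.23 by limma). Neither gene's groups overlapped. Rpl14, at 541 to 748 on ND and 236 to 602 on WD, did overlap (-0.74), and Rps26 and Rpl18 did not (-0.45 and -0.33). The large subunit and stalk members had a median of 0.31 and the small subunit members of 0.38, so that both subunits stood on the same side. The stalk proteins were at -0.16 (Rplp0), 0.29 (Rplp1) and 0.03 (Rplp2), and Rpsa, also known as the laminin receptor, at -0.58, none with an unadjusted p below 0.05.

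Pairs of a ribosomal protein gene and its paralog were looked at side by side. Of 11 genes listed as paralogs, 8 passed the filter on low values, but Rps27rt, Rps3a2, Rps3a3 and Rps4l among them were set aside above as copies or a pseudogene, and none of the 8 had an unadjusted p below 0.05. Rpl22l1 (0.65 ± 0.31) stood beside its namesake Rpl22 (0.63 ± 0.25), and Rps27l (0.49 ± 0.36) beside Rps27 (0.45 ± 0.26). Rpl36al (0.01 ± 0.23) was nearer to 0 than Rpl36a (0.71 ± 0.31), and Rpl7l1 (-0.22 ± 0.15) lay on the other side of 0 from Rpl7 (0.26 ± 0.19). The differences within these pairs were not tested.

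The difference was smaller when the copies were added. The median over the 81 family sums was 0.09, with 47 of 81 higher on WD and 17 with an unadjusted p below 0.05 (11 higher and 6 lower, where 15.5% of all features passed). For Rpl21 the difference was 0.33, for Rps27a 0.33 and for Rps6 0.37. For Rpl13 it was -0.49 and for Rpl29 -0.76. The members Rps3, Rps19 and Rpl8, which have no copy, had log2 differences of 0.26, 0.11 and -0.10, with unadjusted p from 0.31 to 0.66 in the limma fit. Some families did stand apart more clearly as sums than as own rows. The Rps26 family was at 1020, 1080, 1140 and 1010 on ND and at 457, 383, 517 and 717 on WD, without overlap (-1.07 ± 0.22, adjusted p = 0.077 by limma), while the Rps26 row alone differed by -0.45. The Rpl36a family was at 278 to 352 on ND and at 479 to 647 on WD (0.74 ± 0.18, adjusted p = 0.11 by limma). The Rps20 family was at 651 to 1040 on ND and 1350 to 1990 on WD (0.79 ± 0.23, adjusted p = 0.15 by limma).

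**Figure D2:**
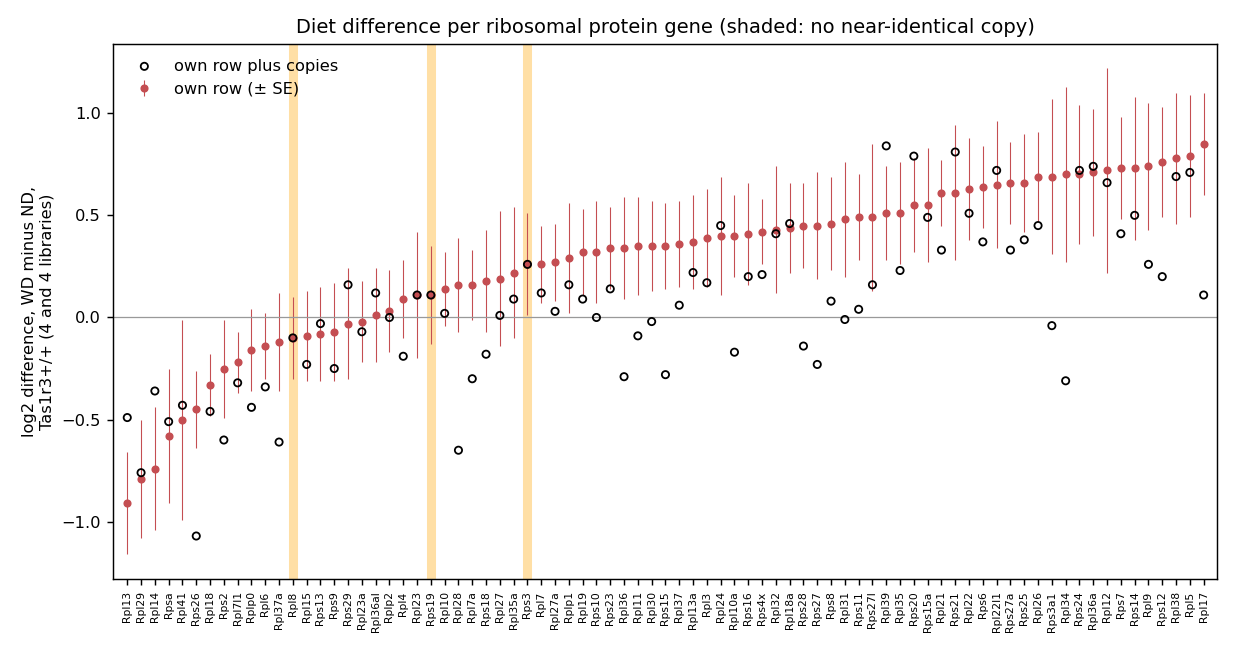
Log2 difference of WD-fed against ND-fed Tas1r3+/+ mice (y axis; 4 and 4 libraries) for 79 of the 81 members with a coding sequence of their own (x axis, ordered by the own row). Filled points with bars are own rows ± SE, open points are family sums, and shading marks 3 members without a copy. Own rows ran from -0.91 for Rpl13 to 0.85 for Rpl17, and many open points, such as that of Rpl17 at 0.11, lay nearer to 0.

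The diet difference was also set against base composition. Over all genes with a known transcript, the diet difference in Tas1r3+/+ mice had a median of 0.43 where the GC content of the most abundant transcript was below 40%, 0.25 at 40 to 45%, 0.08 at 45 to 50%, -0.08 at 50 to 55% and -0.21 at 55 to 60%. The family sums had medians of 0.72 below 40% (1 member), 0.45 at 40 to 45% (5 members), 0.08 at 45 to 50% (27), 0.14 at 50 to 55% (29), -0.10 at 55 to 60% (17) and -0.45 above 60% (2). Own rows stood above all genes of like GC content, with medians of 0.31 at 45 to 50% (30 members), 0.35 at 50 to 55% (33) and 0.18 at 55 to 60% (18). Spearman's rho between GC content and the diet difference was -0.38 over all 18625 genes, -0.38 over the 81 family sums and -0.29 over the 90 own rows, as a description, since genes of 1 library set are not independent. Measured per library, the gap between GC-rich and GC-poor genes (the top and bottom 10%) lay at 0.11 to 0.60 in the ND libraries and at -0.58 to 0.06 in the WD libraries, without overlap. Diet and this difference between the libraries cannot be told apart.

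**Figure D3:**
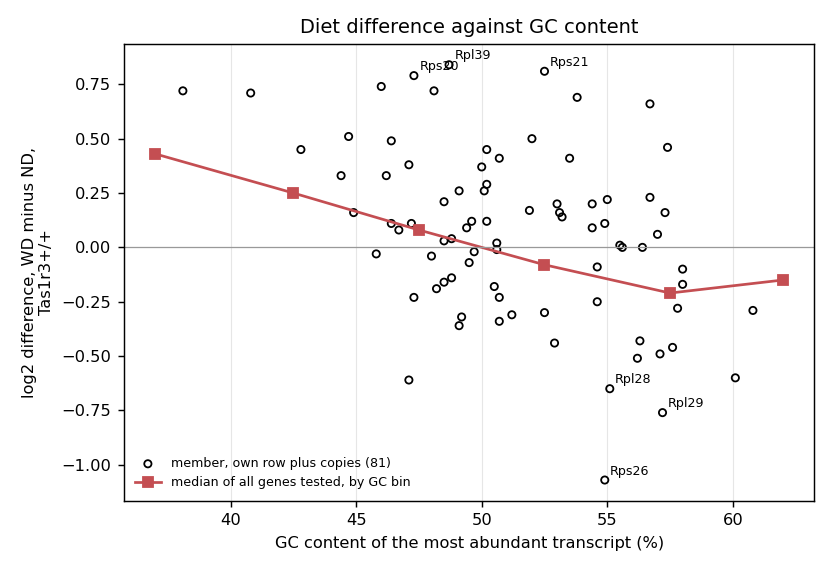
Log2 difference of WD-fed against ND-fed Tas1r3+/+ mice (y axis) against the GC content of the most abundant transcript (x axis, %). Open circles are the 81 family sums, and red squares are medians of all genes tested in bins bounded at 40, 45, 50, 55 and 60%, which fall from 0.43 to -0.21 before -0.15 in the last bin. Rps26 and Rpl29 lay lowest, and Rpl39 (0.84) highest.

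The diet difference was then taken within each sex, as the libraries of 1 group did not lie together. The median deviation of the members from their mean over the 13 libraries was -0.09 and 0.04 in the ND-fed Tas1r3+/+ males, -0.59 and -0.30 in the females, -0.09 and -0.01 in the WD-fed males and -0.15 and 0.46 in the WD-fed females. The WD-fed female F2 stood above every other library, and the ND-fed female F1 below. Among males alone the median diet difference was 0.00, with 45 of 90 members higher, and among females alone it was 0.55, with 78 of 90 higher. At an unadjusted p below 0.05 there were 9 members in males (12.2% of all genes) and 27 in females (8.92% of all genes). The count in males depended on the fit. When the male libraries of both genotypes were fitted together, 21 of 90 members had an unadjusted p below 0.05 for this difference by limma. The share of all genes in that fit was not computed. For family sums the medians were -0.30 in males and 0.42 in females, with 10 and 17 of 81 at an unadjusted p below 0.05 (12.3% and 8.66% of all features), and the difference was larger in females for 80 of 81 families. None of these, and no member in the test of the difference between the sexes, passed an adjusted p of 0.05 (smallest 1.0 for that test, in the limma fit of the 8 Tas1r3+/+ libraries, 2 per sex and diet). At an unadjusted p below 0.05 that test gave 10 own rows (3.57% of all genes) and 0 family sums (3.45%). Over both sexes, the median of 0.34 was 0.18 without the WD-fed female F2 and 0.19 without the ND-fed female F1. The count of members at an unadjusted p below 0.05 was 11 without that ND-fed female, and the share of all genes in that fit was not computed. Leaving out any of the other Tas1r3+/+ libraries gave medians of 0.30 to 0.45.

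**Figure D4:**
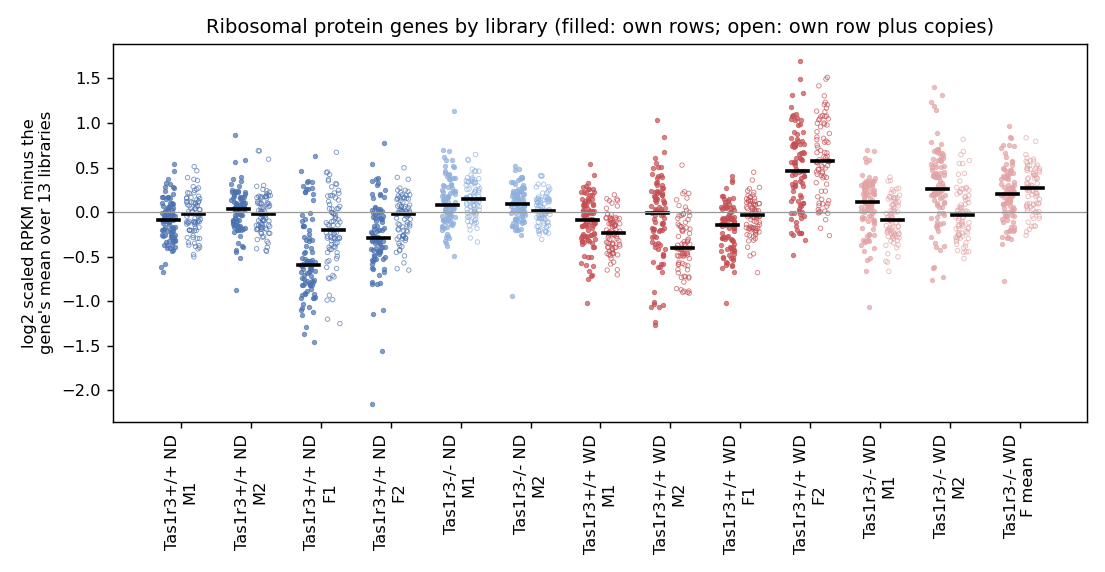
Deviation of each ribosomal protein gene from its own mean over the 13 libraries (y axis, log2 of scaled RPKM + 0.5), by library (x axis). Filled points are the 90 member rows, open points the 81 family sums, and black bars medians. The WD-fed Tas1r3+/+ female F2 had the highest median in both (0.46 and 0.58), and the ND-fed Tas1r3+/+ female F1 the lowest median of own rows (-0.59).

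In Tas1r3-/- mice the same comparison of diets rested on 2 and 3 libraries. The ND-fed libraries were both male and the WD-fed ones included a female mean, so that sex was not balanced. The median of the members was 0.11, with 58 of 90 higher on WD (50.4% of all genes), against 0.00 for all genes. It was 0.04 without the WD-fed male M2 and 0.18 without M1. Among males alone 63 of 90 were higher on WD, and 21 had an unadjusted p below 0.05 (smallest adjusted p 0.21 by limma). The share of all genes in that fit was not computed. Without scaling 19 of 90 were higher, with a median of -0.29 where all genes were at -0.35. Neither threshold was passed by a member (0.0% and 0.00525% of all genes), and 4 members had an unadjusted p below 0.05, which is 4.44% against 5.49% of all genes. The groups did not overlap for 39 members, 43.3% against 20.9% of all genes, 27 of them higher (10.8%) and 12 lower (10.1%). Rpl13 was again lower on WD, at 444 and 279 on ND and 162, 119 and 176 on WD (-1.22 ± 0.33, adjusted p = 0.73 by limma), and Rpl29 was at 308 and 266 on ND and 98.4, 237 and 120 on WD (-1.02 ± 0.38, adjusted p = 0.87 by limma). Rps27a was at 66.0 and 63.7 on ND and at 90.4, 110 and 94.5 on WD (0.59 ± 0.26, adjusted p = 0.90 by limma). The exact permutation p was 0.10 for Rpl13 and Rps27a and 0.20 for Rpl29, where 0.10 is the smallest that 2 against 3 libraries allow. Over family sums the median was -0.01, 39 of 81 were higher, and 3 had an unadjusted p below 0.05 (5.59% of all features). The Rps26 family was lower here as well, at 1120 and 871 on ND and 488, 526 and 625 on WD (-0.86 ± 0.28). These libraries are not shared with the Tas1r3+/+ comparison of diets. In a test of whether the diet difference depended on genotype, no member passed (0 of 90 even at an unadjusted p below 0.05, where 1.43% of all genes did), with a smallest adjusted p of 1.0 by limma, a median of -0.16, 15 of 90 members above 0 (49.5% of all genes) and 75 below. This direction was not stable, as 73 of 90 were above 0 among males alone and 43 of 90 without the WD-fed Tas1r3+/+ female F2. None of the family sums had an unadjusted p below 0.05 either (1.49% of all features).

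Tas1r3-/- and Tas1r3+/+ mice were compared next on each diet. On ND the members were higher in Tas1r3-/- mice in 86 of 90 cases, where 51.3% of all genes were, with a median log2 difference of 0.30 against 0.01 for all genes. The median was 0.19 without the Tas1r3+/+ female F1. No member passed either threshold (0.0% and 0.00525% of all genes), 1 had an unadjusted p below 0.05 (1.11% against 4.73%), and the groups did not overlap for 25, all higher in Tas1r3-/- mice (27.8% against 22.0% of all genes in either direction and 8.67% in this one). Rps28, that member, was at 32.5, 39.3, 19.4 and 28.0 in Tas1r3+/+ and 50 and 44.9 in Tas1r3-/- libraries, without overlap (0.71 ± 0.25, adjusted p = 0.90 by limma, and exact permutation p = 0.13 where 0.067 is the smallest possible). The next were Rps15 (0.56), Rpl35 (0.65), Rps29 (0.65), Rpl3 (0.58) and Rpl38 (0.77), and the 4 below 0 were Rplp0 (-0.13), Rps15a (-0.05), Rpl29 (-0.01) and Rps12l1 (-0.01). The Tas1r3-/- libraries here were both male. Against the Tas1r3+/+ males alone the median was 0.12, with 75 of 90 higher. In family sums the median was 0.14, with 75 of 81 higher and 0 at an unadjusted p below 0.05 (4.85% of all features), and in these members without a copy the differences were 0.34 (Rpl8), 0.35 (Rps19) and 0.14 (Rps3).

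On WD the members again lay mostly above 0, 79 of 90 (47.7% of all genes) with a median of 0.14 against -0.01 for all genes. The median was 0.32 without the Tas1r3+/+ female F2, 0.09 without F1 and 0.22 without the Tas1r3-/- male M1. No member had an unadjusted p below 0.05 (2.65% of all genes) or passed a threshold (0.0105% and 0.0263% of all genes), and in 1 member, Rpl18, the groups did not overlap (1.11% against 2.84% of all genes). Rpl18 was at 169, 160, 165 and 194 in WD-fed Tas1r3+/+ and 202, 199 and 209 in WD-fed Tas1r3-/- libraries (0.24 ± 0.17, adjusted p = 1.0 by limma). Rps19bp1, no ribosomal protein itself, had the smallest unadjusted p in the limma fit (0.087, with a log2 difference of 0.38). Without scaling 55 of 90 were higher. Among males alone 89 of 90 were higher, and 6 had an unadjusted p below 0.05 (smallest adjusted p 0.60 by limma). The share of all genes in that fit was not computed. In family sums the median was 0.06, with 57 of 81 higher and 0 at an unadjusted p below 0.05 (2.67% of all features). The comparisons on ND and WD use separate libraries, but each shares its libraries with a comparison of diets above.

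Cell type markers differed between the groups of these whole-tissue libraries. Between the diets in Tas1r3+/+ mice, 0 of 6 adipocyte markers were higher on WD (median -2.12, 4 at an unadjusted p below 0.05) and 8 of 8 T cell markers were (median 0.64, 4 at an unadjusted p below 0.05), where the summed levels were 24.8 to 222 on ND and 24.5 to 133 on WD for adipocytes and 9.06 to 32.1 and 21 to 68.7 for T cells, with overlap in both. At that p, 6.9% of all genes were higher on WD and 8.64% lower. Between the sexes, 7 of 8 T cell and 6 of 6 adipocyte markers were higher in females (7 and 5 at an unadjusted p below 0.05), and 0 of 7 Paneth and 0 of 6 crypt stem cell markers were (5 and 4 lower at that p). Of all genes, 9.98% were higher in females and 9.31% lower at that p. All 9 enterocyte, 6 ileal and 6 B cell markers tested were higher in females (2, 3 and 2 at that p), and 0 of 9 proliferation markers were (4 lower). The goblet, plasma cell, macrophage, smooth muscle and neuronal and glial lists had markers on both sides. For genotype, the summed level of 9 enterocyte markers was 9080 to 13700 scaled RPKM in ND-fed Tas1r3+/+ and 3650 to 6460 in ND-fed Tas1r3-/- libraries, without overlap, and on WD 6300 to 18700 and 1500 to 16000. The 7 Paneth cell markers, secretory cells of the crypt base, summed to 8980 to 28000 and 25800 to 52400 on ND, and to 7690 to 18900 and 26100 to 40000 on WD, without overlap on WD. The 9 proliferation markers summed to 133 to 192 in ND-fed Tas1r3+/+ and 200 to 264 in ND-fed Tas1r3-/- libraries, without overlap, but to 101 to 207 and 144 to 275 on WD. On ND the sums of 6 plasma cell markers (1910 to 5120 in Tas1r3+/+ and 6690 to 8230 in Tas1r3-/- libraries) and of 7 macrophage markers (220 to 334 and 349 to 366) did not overlap either, while both overlapped on WD. Taken gene by gene, the genotypes did not overlap for 22.0% of all genes on ND and for 2.84% on WD. Both ND-fed Tas1r3-/- libraries were male, and the part of sex in these gaps was not tested. The sums for crypt stem cell, goblet, smooth muscle, B cell, T cell, neuronal and glial, ileal and adipocyte markers overlapped between the genotypes on both diets. In the WD-fed Tas1r3+/+ female F2 the enterocyte, ileal and goblet sums were 18700, 10500 and 16800. The other libraries of its group were at 6300 to 9450, 1750 to 2490 and 5040 to 7430. Its Paneth, B cell and T cell sums were also the highest of the group, and its smooth muscle and neuronal and glial sums the lowest. Its crypt stem cell, proliferation, plasma cell, macrophage and adipocyte sums lay within the range of the others. The part of these cell types in the members' differences was not tested.

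Females and males were compared last. In a fit with group and sex as terms, 2 members passed an adjusted p of 0.05 (2.22% against 0.457% of all genes) and 25 an unadjusted p of 0.05 (27.8% against 19.3%), 10 higher in females (9.98% of all genes) and 15 lower (9.31%), while no member passed the 2-fold threshold with an adjusted p below 0.01 (0.042% of all genes). Rpl12, a large subunit protein at the base of the stalk, was lower in females. It was at 58.3 and 90.9 in males and 26.2 and 33.6 in females on ND, and at 106 and 150 in males and 35.6 and 61.7 in females on WD in Tas1r3+/+ mice, with 117 and 193 in males and 59.1 in the female mean of WD-fed Tas1r3-/- mice. Within each of these 3 groups every female value was below every male value (-1.35 ± 0.20, adjusted p = 0.024 by limma). Rpl23 was at 102 and 108 in males and 68.4 and 76.3 in females on ND, at 115 and 147 against 65.0 and 71.6 on WD, and at 122 and 186 against 78.4 in WD-fed Tas1r3-/- mice (-0.78 ± 0.15, adjusted p = 0.048 by limma), again without overlap within a group. The Rpl12 call was lost when any of 7 libraries was left out in turn, and the Rpl23 call when any of 12 was, with differences between -1.45 and -1.23 and between -0.84 and -0.71. With the most abundant transcript of each gene in place of the sum, both calls were lost as well, at -2.69 for Rpl12 (adjusted p = 0.078 by limma) and -0.21 for Rpl23 (adjusted p = 0.59). The Rpl23 call was also lost with the RPKM as deposited (adjusted p = 0.053) and with no filter (adjusted p = 0.069).

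Both genes have a copy listed far above their own row, identical for Rpl12 and with 1 difference for Rpl23 as printed above, and the family sums differed by -0.28 and -0.12 only. The copies among the members stood on the other side. Rps12l1 was at 1.22 ± 0.31 (female minus male, adjusted p = 0.079 by limma), Rps27rt at 0.86 ± 0.26 (adjusted p = 0.11) and Rpl37rt at 0.84 ± 0.22 (adjusted p = 0.081), and all 7 copies among the members were higher in females, with a median of 0.69. The own row of Rps27 was at -0.20. Across the 77 families with copies, the own row was lower and the summed copies were higher in females in 45, both were higher in 22, both lower in 6 and the own row higher with the copies lower in 1, the rest being 0.00 when rounded. Counted one by one, however, the copies gave a direction opposite to that of the sums. Of the 803 copies outside the naming rule that passed the filter, 509 were lower in females and 294 higher (median -0.21). At an unadjusted p below 0.05, 192 of the 803 were lower and 88 higher, where 9.31% and 9.98% of all genes were. The own row's median share was lower in females than in males in 66 of 77 families. In the typical family the most abundant row held 50.1 to 57.9% of the family in female and 41.8 to 52.0% in male libraries. The family sums themselves were higher in females in 67 of 81 cases, with a median of 0.28, and 13 of these had an unadjusted p below 0.05 (18.6% of all features). In those 45 families own rows and copies lay on opposite sides of 0, and the part of how shared reads were divided was not tested. The 4 members on the X chromosome were Rpl10 (0.00), Rps4x (-0.21), Rpl39 (-0.25) and Rpl36a (-0.69, adjusted p = 0.088 by limma).

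**Figure D5:**
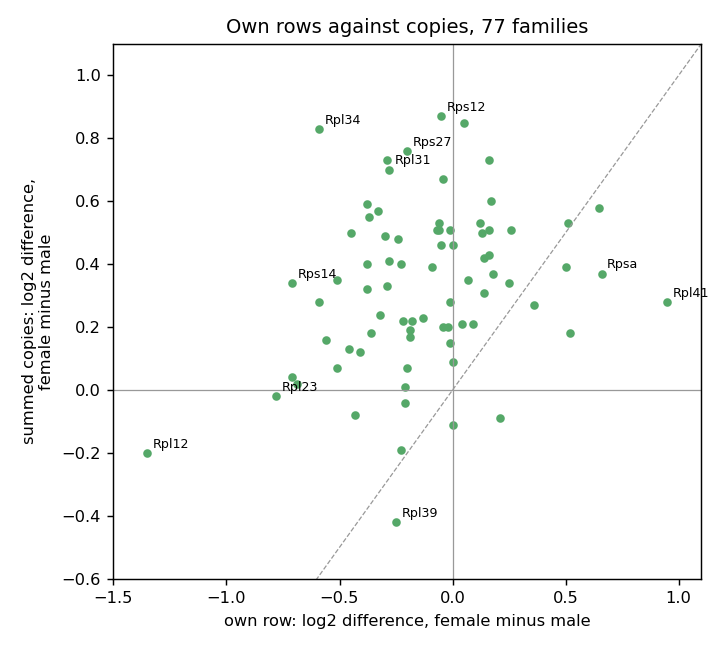
Log2 difference, female minus male, of the members' own rows (x axis) and of their summed copies (y axis) in the 77 families with a copy. The dashed line marks equal differences. Of the 77 points, 45 lie to the upper left, where own rows were lower and copies higher in females, and Rpl12 (-1.35) and Rpl23 (-0.78) lie farthest left.

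The members varied together in part. Their coefficient of variation over the 13 libraries ran from 12.3 to 64.0%, the largest being that of Rps12l1. Over these libraries, which share scaling and groups, the median Pearson correlation among the 4005 pairs of members was 0.45 on the log2 scale, with 80.5% of pairs above 0, and 0.46 after the group means were removed. Among family sums it was 0.57, and 0.79 with group means removed. The same was not computed for pairs of other genes. The median deviation of the family sums was 0.58 in the WD-fed Tas1r3+/+ female F2 and -0.23, -0.41 and -0.03 in the rest of its group. The part of that library in these correlations was not tested. Rpl35, Rpl39 and Rpl22l1 were most like the mean profile of the members (0.93 to 0.95), and Rpl13, Rpl6l, Rpl29 and Rpl14 were among those below 0. Outside the rule, the 10 genes most like this profile over 13 libraries, among 7519 with a mean RPKM of at least 10, had correlations of 0.921 to 0.949. Of these 10, 8 were copies of members, led by Rpsa-ps9, and the other 2 were Uqcc2, an assembly factor of the mitochondrial respiratory chain, and Ppp1cc, a phosphatase subunit.

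The genes around the ribosome did not all share the members' pattern. Fau and Rack1, which encode a ribosomal protein and a ribosome-bound scaffold but fall outside the naming rule, differed by 0.10 and 0.07 between the diets in Tas1r3+/+ mice and by 0.23 and 0.10 between the genotypes on ND, none with an unadjusted p below 0.05. Of 18 other genes with TOP mRNAs or related roles in translation, 5 were higher and 1 lower on WD in Tas1r3+/+ mice at an unadjusted p below 0.05 (6.9% and 8.64% of all genes), with a median of 0.11. Npm1, a nucleolar chaperone, was at 0.75 and the poly(A)-binding protein gene Pabpc1 at -0.60. Of 32 ribosome biogenesis genes, 0 were higher and 2 lower at that p, with a median of -0.14, and Bop1, which is needed for large subunit assembly, was at -0.92 ± 0.19 (adjusted p = 0.079 by limma). For genotype on WD their median was 0.25, with 31 of 32 higher in Tas1r3-/- mice (47.7% of all genes) and 3 at an unadjusted p below 0.05 (2.65% of all genes), and on ND it was 0.19, with 28 of 32 higher (51.3% of all genes). Between the sexes, 30 of these 32 were lower in females (median -0.35), 11 of them at an unadjusted p below 0.05 (9.31% of all genes). Both ND-fed Tas1r3-/- libraries were male, and sex was not balanced between the genotypes on WD either. The part of sex in these genotype differences was not tested. The 82 mitochondrial ribosomal protein genes had medians of -0.06 and -0.15 for diet in Tas1r3+/+ and Tas1r3-/- mice and of 0.18 and 0.12 for genotype on ND and WD. For genotype, 69 of the 82 on ND and 68 on WD were higher in Tas1r3-/- mice (51.3% and 47.7% of all genes). The direction of the genotype difference was therefore not particular to the members. Of 15 regulators of mTORC1 and its outputs, 1 was higher and 3 lower on WD in Tas1r3+/+ mice at an unadjusted p below 0.05, against the same 6.9% and 8.64%, with Myc at -0.79. Mtor itself was at -0.58 on ND and -0.78 ± 0.18 on WD in Tas1r3-/- against Tas1r3+/+ mice (adjusted p of 0.90 and 0.71 by limma). None of the genes of these lists passed an adjusted p of 0.05 for diet or genotype.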

How the data were processed

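Ileum RNA was sequenced on an Ion Proton after mRNA selection and rRNA depletion. According to the methods and the labels, the authors processed reads in Partek, aligned them to mm10 with STAR and quantified Ensembl transcripts. The deposited values are RPKM per transcript, as named by the authors. The ND columns have nearly equal totals and the WD columns do not, so the unit may differ between them. How reads that fit several genes were divided is not given in the sources used here. RPKM was summed per gene. Each library was then brought to a common scale with TMM-type factors (trimming 30% of log ratios and 5% of levels at each end), genes reaching an RPKM of 1 in 2 or more of the 13 libraries were kept, and log2(scaled RPKM + 0.5) was fitted with limma 3.58.1 (trend) in R 4.3.3 over the 4 groups, with Benjamini-Hochberg adjustment over all genes. Fold changes are on that scale and understate changes of low genes. Copies were found with blastn 2.17.0+. Single genes were tested by two-sided exact permutation. The members and lists were chosen with earlier results of these data known. Members named were those with the 5 smallest p each way in each comparison, the highest and lowest levels, the stalk genes, Rpsa, Rps6, Rps27a, paralogs, X-linked members and Rps19bp1. Others, such as the family sums and the members without copies, were named after their values were seen. The fit was tested on simulated data. Alternatives were other scalings, pseudocounts and filters, leaving out each library, the replicate number as a block, males alone, all 16 labelled columns and family sums. The female ND-fed Tas1r3-/- columns were left out. A few genes are not reported here.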

Additional observations from a re-analysis of the deposited data

Results flagged for a closer look

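In 50 tests of whether the highest or lowest of 4 libraries stood far from the rest (Dixon's test, for which chance flags about 1 in 20), 5 values did. In the WD-fed Tas1r3+/+ female F2, the members made up 3.44% of the summed RPKM, Rpl17 was at 70.3 and Rps3, a member without a copy, at 518 scaled RPKM, each above the other 3 libraries of its group. In the ND-fed Tas1r3+/+ mice, Rpl29 was at 376 in the male M2, and the median deviation of the family sums was -0.20 in the female F1.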

How the results depend on the processing

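No member passed the 2-fold threshold with an adjusted p below 0.01 in any comparison, apart from 3 for diet in Tas1r3+/+ mice with the RPKM as deposited. With an adjusted p below 0.05 and no fold, 2 were called between the sexes. The median diet difference in Tas1r3+/+ mice (0.34) was -0.12 with the RPKM as deposited, 0.00 in males alone, 0.09 for family sums and 0.00 over the 4 members without a copy. In Tas1r3-/- mice (0.11) it was -0.29 as deposited and -0.22 over those 4. Leaving out each library in turn gave medians of 0.18 to 0.45 for diet in Tas1r3+/+ mice, 0.04 to 0.18 in Tas1r3-/- mice, 0.19 to 0.39 for genotype on ND and 0.09 to 0.32 on WD, with 0 called. With the replicate block, medians were 0.34, 0.19, 0.28 and 0.23. Same-numbered libraries did not deviate together in every pair (correlations of -0.15 to 0.57). The numbers are nested in sex, so the block also takes out the difference between the sexes. The block raised the members at an unadjusted p below 0.05 from 22 to 34 for diet in Tas1r3+/+ mice and from 4 to 18 in Tas1r3-/- mice. Sex as a covariate alone gave 31 and 13. The share of all genes in these fits was not computed, so the rise cannot be read as particular to the members. All 16 columns as labelled count the dependent columns as mice. With them, the smallest adjusted p of a member was 0.035 and 0.018 for the diet comparisons in Tas1r3+/+ and Tas1r3-/- mice by limma. The cause of the other shifts was not tested. Family sums, the members with their own coding sequence and those without a copy were added after the data were seen. The 2 to 4 libraries of a group limit every test, and the depth as total reads is not given in the values used.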
